A study of Ovis aries with 27 samples.

Results

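Maternal cortisol and vehicle were compared in the heart septum of fetal sheep, over both gestational ages, in all 27 of the 27 arrays of the series. The septum is the muscular wall between the ventricles, and each array held RNA from 1 fetus. The 13 cortisol fetuses were set against the 14 controls as the labels name them, with gestation as a covariate and no term for a different effect at each age. Ewes received cortisol as a continuous infusion at 1 mg/kg/d, or vehicle. Near 130 d of gestation 6 vehicle and 6 cortisol fetuses were sampled, and near 140 d 8 vehicle and 7 cortisol fetuses. The younger ones were 129 to 131 d old after an infusion of about 10 d, and the older ones at 139 to 144 d after about 25 d. The labels give the start of the infusion as about 120 d in the younger cohort and about 115 d in the older one, and another label gives 115 d for all ewes. Age, cohort and length of infusion therefore cannot be told apart, and the pooled value averages over infusions of both lengths. The 8 older controls came from 7 ewes, so a twin pair shares a mother among the samples counted as independent. The p values set the difference between the arms against the spread between these fetuses.

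Cortisol is the main glucocorticoid of sheep. It enters cells and binds the glucocorticoid receptor, NR3C1, and with high affinity also the mineralocorticoid receptor, NR3C2, both of which then act on transcription in the nucleus. The enzyme HSD11B2 inactivates cortisol to cortisone and HSD11B1 restores it, so the level of each helps to set how much active hormone a tissue sees. Fetal cortisol normally climbs towards term, when it matures the lung, liver and heart, and an earlier or larger exposure has been studied as a cause of altered heart growth. The comparison asks which transcripts of the septum differ with raised maternal cortisol on average over both ages.

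The tissue was checked against heart muscle markers first. Of 15 listed cardiomyocyte markers only MB, which encodes the oxygen store myoglobin, had a named probe that was tested. Its signal, as log2 relative to each array's 75th percentile, was between 7.51 and 8.83 over the 27 arrays and differed by -0.05 between the arms (95% interval -0.27 to 0.18). None of the 10 listed nerve markers had a tested named probe. The share of spots well above background ran from 77.0% to 87.0%, and the 75th percentile of intensity lay between 602 and 1273. The cortisol array labelled replicate 4 at 140 d stood apart. Its mean correlation with the other arrays of its group was 0.955, against 0.971 to 0.986 for the other 26 arrays, and it scored 85.6 on the second principal component, where the other 26 lay between -15.9 and 12.3. The next lowest was the control array labelled replicate 1 at 140 d, at 0.971. For a number of results the value without an array that moved it is given beside them.

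No transcript passed the test for a cortisol difference averaged over both ages. Of 12778 probes, 0 had a Benjamini-Hochberg adjusted p under 0.05 in limma (percent called 0.00), and the smallest adjusted p was 0.997. At an unadjusted p under 0.05 there were 383 probes (3.00%), 100 of them higher (0.783%) and 283 lower (2.21%) with cortisol, where evenly spread p values would give 638.9. The plot of p values shows this shortfall at the left. Without the cortisol array labelled replicate 4 the counts were 0 at the adjusted threshold and 429 unadjusted, and without the control array labelled replicate 1 they were 0 and 322. In the same fit the gestation term called 4129 probes (32.3%), so the same arrays and the same model did separate the ages. The first principal component carried 23.2% of the variance, and gestation accounted for 77.8% of that component and the arm for 0.72%.

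**Figure D1:**
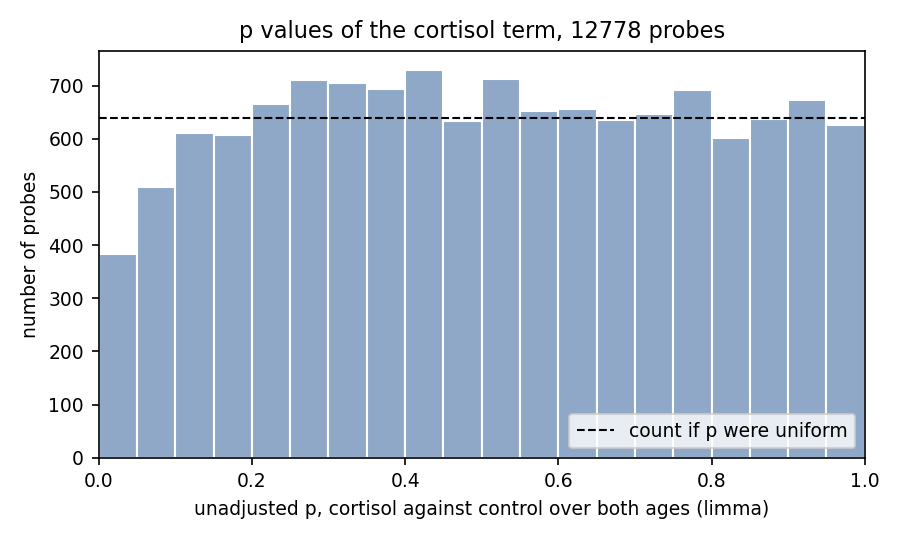
Number of probes (vertical axis) by unadjusted p of the cortisol term (horizontal axis, steps of 0.05) over 12778 probes; the dashed line is the 638.9 probes per step that evenly spread p values would give. The leftmost bar holds 383 probes, below the line.

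The intervals show how large an average effect over both ages these arrays could have held, and do not bound an effect at a single age. The median probe differed by -0.02 on the log2 scale with a median standard error (SE) of 0.11. The 95% interval lay within a 2-fold change in both directions for 12370 probes (96.8%) and within 1.5-fold for 10887 (85.2%). For the 10778 probes with no array near background these shares were 99.0% and 93.1%. Dim probes were less well bounded. Among the other 2000 tested probes 85.0% lay within 2-fold and 42.8% within 1.5-fold. The estimate itself exceeded 2-fold for 20 probes, of which 17 were among those 2000 dim probes.

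Over both ages the arms overlapped for every one of the 12778 probes (0 not overlapping, 0.00%). Within an age the cortisol and control arrays did not overlap for 57 probes at 130 d (0.446%) and for 2 probes at 140 d (0.0157%). Of the 52 genes and probes named here, SLC2A8 alone had arms that did not overlap, at 130 d.

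The probes nearest to the threshold had no gene symbol. Their 60-base sequences on the array are shown because they are the only identity these leaders have, all letters in lower case since no part of them is singled out.
A_70_P034811: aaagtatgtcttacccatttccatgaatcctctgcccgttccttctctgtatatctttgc
A_70_P068901: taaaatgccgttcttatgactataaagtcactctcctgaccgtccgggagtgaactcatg
A_70_P045761: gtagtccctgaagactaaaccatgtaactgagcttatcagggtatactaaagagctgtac
A_70_P066456: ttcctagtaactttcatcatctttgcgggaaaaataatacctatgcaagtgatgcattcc
The first, A_70_P034811, was well above background on all 27 arrays and was 0.52 ± 0.14 (SE) higher with cortisol (unadjusted p = 0.00107, adjusted p = 0.997). At 130 d it lay between -3.31 and -2.03 in controls and between -2.50 and -1.21 with cortisol. At 140 d the ranges were -3.07 to -2.11 and -2.41 to -1.99, so the cortisol arrays sat towards the upper end of an overlapping range at both ages. A_70_P068901 was 0.56 ± 0.16 higher but was well above background on only 8 of the 27 arrays, counting 1, 3, 2 and 2 in the groups from control at 130 d to cortisol at 140 d. A_70_P045761 had the smallest unadjusted p of all probes (0.000675), with a difference of -0.92 ± 0.24, and its signal was well above background on 10 of 14 control and 5 of 13 cortisol arrays. A_70_P066456 differed by -0.48 ± 0.13, and none of the 7 cortisol arrays at 140 d had it well above background. Both of these lower probes changed direction with another background correction, to 0.05 for A_70_P045761 and 0.11 for A_70_P066456. That correction, normexp, added an offset of 50 to every intensity. It moved the median of all probes by 0.12, and its values are given relative to that throughout. The offset compresses differences of dim probes. Genes of higher signal, such as RCAN1 and IFNAR1, also changed sign with it. The cause was not tested, so this setting decides no direction, here or below.

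Of the 796 named genes tested, 20 had an unadjusted p under 0.05 (2.51%), 2 higher (0.251%) and 18 lower (2.26%), and 0 passed the adjusted threshold. The gene nearest to it was PGF, placental growth factor, a ligand of the vessel receptor FLT1. Its median signal was -4.07 in controls and -4.29 with cortisol at 130 d, and -4.02 and -4.37 at 140 d. The lowest and highest values were -4.61 and -3.50, then -4.54 and -4.09, then -4.31 and -3.48, then -4.98 and -3.95 in the same order. The arms overlapped at both ages, and 12 of the 13 cortisol arrays lay below the control mean of their age. The difference was -0.37 ± 0.11 (SE; 95% interval -0.60 to -0.13; unadjusted p = 0.00317, adjusted p = 0.997). PGF has another probe on the array whose sequence is the same stretch moved by 1 base. Both are shown with the 59 shared bases in capitals, because they bear on how far a single probe can be trusted.
PGF A_70_P026691: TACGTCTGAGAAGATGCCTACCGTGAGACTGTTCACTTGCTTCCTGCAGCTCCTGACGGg
PGF A_70_P026692: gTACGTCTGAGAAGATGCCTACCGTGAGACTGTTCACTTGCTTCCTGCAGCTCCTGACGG
The second probe gave -0.08 ± 0.17, so these near-identical probes gave different estimates of the same transcript.

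The other leading lower genes came from varied functions. TSPO, a protein of the outer mitochondrial membrane linked to cholesterol import, had mean signals of 1.74 (control) and 1.62 (cortisol) at 130 d and of 1.79 and 1.42 at 140 d. All 7 cortisol arrays at 140 d lay below the control mean, in a range of 1.11 to 1.64 against 1.47 to 2.30. The difference over both ages was -0.26 ± 0.08, and its second probe gave -0.24. SLC2A8, a glucose transporter kept on membranes inside the cell, differed by -0.26 ± 0.09, with -0.20 at its other probe. At 130 d its cortisol arrays, between -3.68 and -3.16, all lay below the controls, between -3.14 and -2.82. At 140 d the ranges overlapped, at -3.46 to -2.52 with cortisol and -2.95 to -2.14 in controls. HOXC6, a homeobox transcription factor, differed by -0.49 ± 0.17, F11R, a tight junction protein, by -0.36 ± 0.13, and SLC25A38, a mitochondrial glycine carrier, by -0.20 ± 0.07. F11R was well above background on 12 of 14 control and 8 of 13 cortisol arrays. PLIN1, which coats fat droplets, differed by -0.24 ± 0.09 (-0.11 at its other probe) and ACR, a protease known from sperm, by -0.43 ± 0.17. Each of these 7 genes had an adjusted p of 0.997. TLR7, a receptor for single-stranded RNA, and CYP17A1, a steroid-producing enzyme, complete the 10 genes with the smallest p in this direction and are given with their groups. Under normexp correction 6 of these 10 genes (PGF, SLC25A38, HOXC6, F11R, TLR7 and ACR) were above 0. Their mean signals ran from -5.72 (F11R) to -3.61 (SLC25A38), and why they turned was not tested. The others of the 10 lay between -2.96 (SLC2A8) and 1.65 (TSPO).

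**Figure D2:**
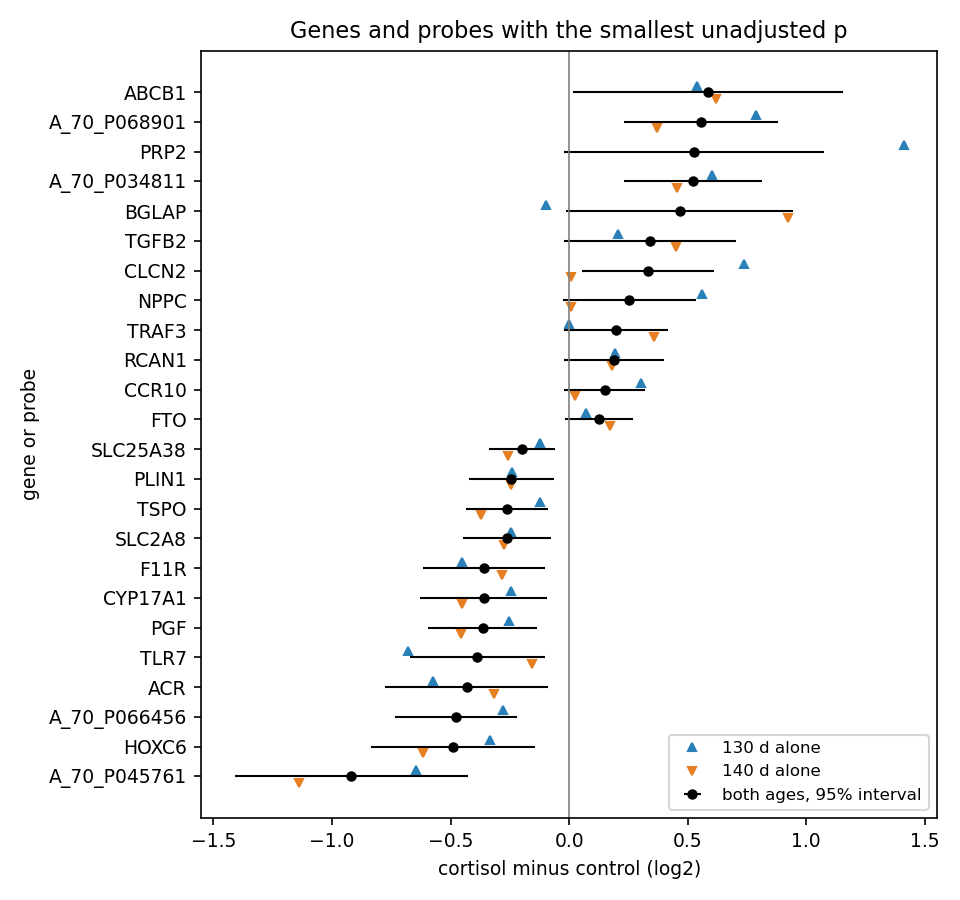
Cortisol minus control (horizontal axis, log2) for the 10 named genes and 2 unnamed probes per direction with the smallest p: black points are the estimate over both ages with its 95% interval, blue and orange triangles the estimates at 130 d and 140 d. Triangles are left out where a group had no array well above background; for CLCN2 the triangles stand at 0.74 and 0.01, and for ABCB1 at 0.54 and 0.62.

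On the higher side fewer genes stood near the threshold, and for some the estimates of the ages lay far apart. CLCN2, a chloride channel of the cell membrane, had median signals of -4.44 in controls and -3.72 with cortisol at 130 d, and of -4.22 and -4.34 at 140 d. The ranges at 130 d were -4.77 to -3.82 and -3.89 to -3.39, and all 6 cortisol arrays lay above the control mean. The pooled difference was 0.33 ± 0.14 (unadjusted p = 0.0216, adjusted p = 0.997), made of 0.74 ± 0.18 at 130 d and 0.01 ± 0.16 at 140 d, and the difference between the ages had an adjusted p of 0.465. Its other probe gave 0.06 ± 0.17. ABCB1, a drug efflux pump of vessel walls that also exports glucocorticoids, was 0.58 ± 0.28 higher, with 0.54 ± 0.42 at 130 d and 0.62 ± 0.38 at 140 d, and 12 of 13 cortisol arrays lay above the control mean of their age. At 140 d its cortisol arrays lay between -4.01 and -2.75, inside the control range of -5.47 to -2.14.

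BGLAP, which encodes the bone protein osteocalcin, differed by 0.47 ± 0.23, and by 0.29 without the cortisol array labelled replicate 7 at 140 d. By age it was -0.10 at 130 d and 0.92 at 140 d. BGLAP was well above background on only 4 of 6 cortisol arrays at 130 d and 4 of 8 control arrays at 140 d. PRP2 differed by 0.53 ± 0.27, made of 1.41 at 130 d and -0.18 at 140 d, but was well above background on 7 of 27 arrays, all at 130 d. TGFB2, a growth factor that promotes matrix formation, differed by 0.34 ± 0.18. NPPC, the C-type natriuretic peptide, differed by 0.25 ± 0.14 at 1 probe and by -0.13 at the other. RCAN1, an inhibitor of calcineurin, differed by 0.19 ± 0.10, and by 0.11 without the cortisol array labelled replicate 4 and -0.0057 under normexp correction. TRAF3, an adaptor of immune receptors, FTO, an RNA demethylase, and CCR10, a chemokine receptor, differed by 0.20 ± 0.11, 0.13 ± 0.07 and 0.15 ± 0.08. TRAF3 stood at -0.0018 at 130 d and 0.36 at 140 d, and its second probe gave 0.07. The second CCR10 probe gave -0.16. Each of these 8 genes had an adjusted p of 0.997.

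Genes of cortisol action and metabolism gave no call, with 0 of 9 tested members past the threshold and 7 of them lower, where 55.9% of all named genes were lower by any amount. NR3C1, the receptor itself, differed little between the arms. Its medians were -3.60 (control) and -3.45 (cortisol) at 130 d and -3.31 and -3.44 at 140 d, and the values of all groups lay between -4.09 and -2.88. The difference was -0.00058 with an SE of 0.12 and a 95% interval of -0.24 to 0.24, and was 0.10 under normexp correction. HSD11B1 differed by 0.10 ± 0.18 (-0.26 to 0.46), and by 0.03 without the cortisol array labelled replicate 4. HSD11B2 differed by -0.64 ± 0.40, with an interval from -1.45 to 0.17. In the older controls HSD11B2 lay at -0.12 on the array labelled replicate 3 and at -3.34 or below on the other 7. Without that array the difference was -0.33. No probe was named for NR3C2, FKBP5 or TSC22D3 among those tested.

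POMC, the precursor of the hormone that drives the adrenal, was among the largest differences in this group. Its medians were 0.01 and -0.03 in the control and cortisol arms at 130 d, where the highest control array stood at 2.45. At 140 d all 7 cortisol arrays lay between -1.40 and -0.36 and the 8 controls between -0.80 and 1.08, so the ranges overlapped with the cortisol arrays lower. The difference was -0.62 ± 0.24 (unadjusted p = 0.0171, adjusted p = 0.997). Without the control array labelled replicate 2 at 130 d it was -0.45. The probes of POMC overlap by 59 bases, printed in capitals to show how close their agreement of -0.62 and -0.59 is to a repeat measurement.
POMC A_70_P039552: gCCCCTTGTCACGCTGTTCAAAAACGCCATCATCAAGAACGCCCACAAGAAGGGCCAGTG
POMC A_70_P039551: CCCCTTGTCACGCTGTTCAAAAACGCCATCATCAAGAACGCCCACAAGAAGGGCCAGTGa
CYP17A1 differed by -0.36 ± 0.13 and CRHR1, a receptor of corticotropin-releasing hormone, by -0.25 ± 0.15. CRHR1 was 0.15 under normexp correction, and stood at -0.57 at 130 d and 0.0012 at 140 d. The median of the 9 genes was -0.30, with 0.02 at 130 d and -0.45 at 140 d. It was 0.08 with 5 genes higher under normexp correction, and -0.05 without the control array labelled replicate 3 at 140 d.

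Genes known to respond to glucocorticoids gave no call either. Of 11 tested, 0 passed the threshold, 4 were higher and 7 lower, with a median of -0.02 (0.06 under normexp correction) against -0.02 over all named genes. The ages lay on opposite sides, with a median of -0.21 and 10 of 11 lower at 130 d and of 0.09 and 7 of 11 higher at 140 d. Without the cortisol array labelled replicate 4 the pooled median was -0.11 with 10 of 11 lower. TXNIP, a glucocorticoid-induced brake on thioredoxin and glucose uptake, had medians of 5.09 and 4.89 in the control and cortisol arms at 130 d and of 5.13 and 5.45 at 140 d. Its highest values were 5.56, 5.12, 5.80 and 6.87 and its lowest 4.44, 4.40, 4.48 and 4.61 in the same order. The ranges overlapped, and the older cortisol group reached highest. The pooled difference of 0.26 ± 0.20 (adjusted p = 0.997) was made of -0.18 ± 0.28 at 130 d and 0.61 ± 0.25 at 140 d, and was 0.14 without the cortisol array labelled replicate 4. PER1, a clock gene that glucocorticoids induce, differed by -0.04 ± 0.15 (-0.34 to 0.26), and by 0.18 under normexp correction. SCNN1A, the alpha subunit of the epithelial sodium channel, differed by -0.46 ± 0.18, and by 0.12 under normexp correction. Its other probe gave -0.30, and at 130 d it was well above background on 3 of 6 cortisol arrays.

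**Figure D3:**
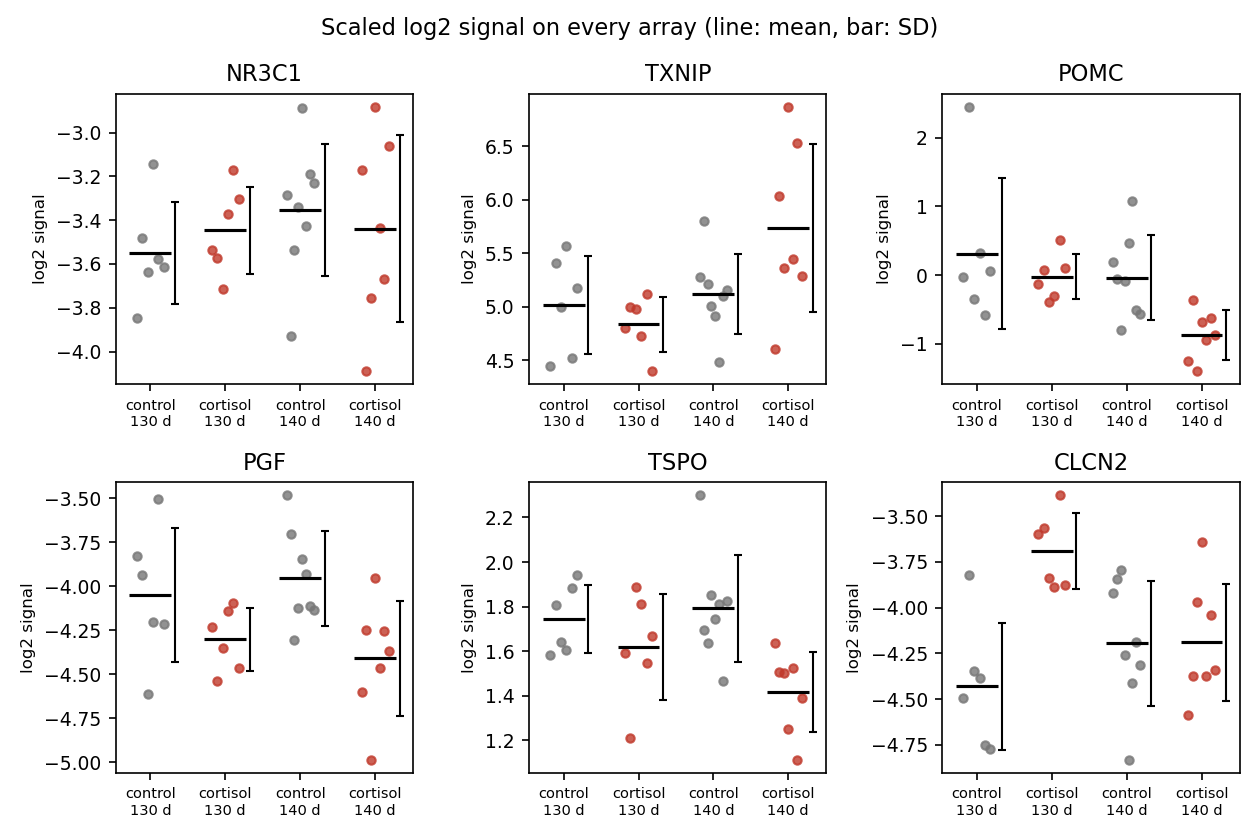
Signal of 6 genes on every array (vertical axes, log2 relative to the array's 75th percentile) in the 4 groups, grey for control and red for cortisol; lines are group means and bars are 1 SD. The arms overlap at both ages for all 6 genes. With cortisol the means of PGF, POMC and TSPO are lower at both ages, and that of CLCN2 is higher at 130 d. For POMC the control mean at 130 d includes its highest array, at 2.45. The mean of TXNIP is lower at 130 d and higher at 140 d.

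Genes of the matrix and of transforming growth factor beta signalling leaned one way without any of them passing the test. Of 20 tested, 0 passed, 18 were higher and 2 lower with cortisol, with a median of 0.13 against -0.02 over all named genes. Counts higher were 19 under normexp correction, 19 by quantile scaling and 17 with slide as a fixed block, where the median was 0.07. The median shift (18) and the authors' table (19) differ from the main values only by a constant per array. They could hardly change the count. The lean was smaller without the cortisol array labelled replicate 4, at a median of 0.04, and it varied with the slide, with medians of 0.12 and 0.16 within slides 2 and 3 and of -0.05 within slide 4. Slide 5, at -0.06, held 3 control arrays and only 1 cortisol array, so its value rests on that array. TGFB2 led by p, and TIMP1, an inhibitor of matrix proteases, and MMP2, a matrix protease, followed. TIMP1 differed by 0.32 ± 0.22 and by 0.21 without that cortisol array, and MMP2 by 0.18 ± 0.13 and by 0.10 without it. MMP2 stood at -0.05 at 130 d and 0.37 at 140 d. Between 130 d and 140 d TGFB2 dropped by 0.87 (adjusted p = 0.000537) and TIMP1 by 0.64 (adjusted p = 0.0299).

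Markers of other heart cells were read beside the matrix genes. All 5 fibroblast markers were higher, with a median of 0.11 that was 0.05 with 4 higher under normexp correction, 0.03 with slide as a fixed block and 0.02 without the cortisol array labelled replicate 4. Within slide 4 only 1 of the 5 was higher, and likewise within slide 5 with its single cortisol array. VIM, a filament protein of fibroblasts and vessel cells, differed by 0.28 ± 0.17, and by 0.17 without the cortisol array labelled replicate 4. The 6 endothelial markers were all higher with a median of 0.12, or 5 of 6 under normexp correction. The median was 0.07 without the control array labelled replicate 1 at 140 d, and -0.08 with 3 of 6 higher within slide 5. EDN1, the vessel-constricting peptide endothelin, differed by 0.26 ± 0.16. Of the fibroblast markers 4 are also on the matrix list and 4 endothelial markers recur among the 13 genes of vessel growth and oxygen sensing, of which 11 were higher (13 under normexp correction) with a median of 0.12, or 0.07 without the cortisol array labelled replicate 4. In bulk tissue, more cells of a type and more RNA per cell cannot be told apart, and the part of cell make-up in these leans was not tested. The fat cell markers differed in both directions, 5 of 9 higher, and of 3 red cell genes 2 were higher.

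Genes of growth and metabolism gave no call, and their intervals differed in width. Among 12 genes of the insulin-like growth factor system 8 were higher, with a median of 0.10 that was -0.01 under normexp correction and -0.01 without the control array labelled replicate 1. The intervals of 7 of the 12 lay within 1.5-fold, and of 6 of the 11 cell cycle genes, against 75.6% of all named genes. IGFBP6, a binding protein that holds IGF2, differed by 0.19 ± 0.16, by 0.09 without the cortisol array labelled replicate 4 and by -0.0013 under normexp correction. Of 11 cell cycle genes 7 were lower with a median of -0.12 (9 and -0.06 under normexp correction, 8 and -0.06 without the cortisol array labelled replicate 4), and the mitotic kinase AURKA differed by -0.28 ± 0.17. AURKA was 0.93 lower at 140 d than at 130 d (adjusted p = 0.000218). For glycolysis and glucose transport all 12 intervals lay within 1.5-fold, and the median was -0.01. Under normexp correction the median was -0.18 with 10 of 12 lower. PFKL, a phosphofructokinase, differed by 0.25 ± 0.16, and by 0.15 without the cortisol array labelled replicate 4.

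The 6 respiratory chain and ATP synthase genes likewise all lay within 1.5-fold, with 5 lower and a median of -0.09 (-0.29 under normexp correction, -0.03 without the cortisol array labelled replicate 4). ATP5MC1, a subunit of the rotor of ATP synthase, differed by -0.18 ± 0.10, and by -0.11 without that array, while it was 0.71 higher at 140 d than at 130 d (adjusted p = 1.27e-05). Among the mitochondrial carriers 6 of 9 were lower, and SLC25A11, the oxoglutarate carrier, differed by -0.14 ± 0.12, or by -0.02 without that array. Fatty acid oxidation genes divided evenly, 3 and 3, with PPARA, a transcription factor that drives them, at -0.12 ± 0.09. Of 15 ribosomal protein genes 12 were lower with a median of -0.06, all within 1.5-fold. By quantile scaling 9 were lower, and under normexp correction 14 were, with a median of -0.27. RPS20 differed by -0.12 ± 0.06. Of the 5 genes of the proteasome and ubiquitin 2 were higher and 3 lower. Under normexp correction all 5 were lower, with a median of -0.29. UBB, which encodes ubiquitin, differed by -0.10 ± 0.05. Of 10 apoptosis genes 6 were lower, with the death receptor FAS at -0.53 ± 0.28. Each list here had 0 members past the adjusted threshold.

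T cell markers were lower as a group by most settings. All 5 tested lymphocyte markers were lower, with a median of -0.34, and 5 of 5 were lower at each age, with medians of -0.25 and -0.33, but under normexp correction 3 of 5 were lower with a median near 0. CD247, the zeta chain of the T cell receptor complex, differed by -0.34 ± 0.15. Its medians were -3.89 and -4.07 at 130 d and -4.06 and -4.73 at 140 d in the control and cortisol arms. At 140 d the cortisol arrays lay between -5.17 and -4.25 and the controls between -4.65 and -3.69, overlapping. The probes of CD247 share 40 bases, in capitals, and their other bases differ, so they measure neighbouring stretches of the transcript.
CD247 A_70_P039351: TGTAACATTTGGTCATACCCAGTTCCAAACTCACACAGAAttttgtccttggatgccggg
CD247 A_70_P039352: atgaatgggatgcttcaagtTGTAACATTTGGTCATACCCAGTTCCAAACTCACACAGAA
They gave -0.34 and -0.52. CD3D, another chain of that complex, differed by -0.35 ± 0.20 and CD5, a T cell surface receptor, by -0.21 ± 0.16 (-0.13 without the control array labelled replicate 3 at 130 d), and all 3 had an adjusted p of 0.997. CD3D was 0.04 under normexp correction. The 12 probes that the array describes as T cell receptor, a group chosen after values were seen, had a median of -0.08 with 9 lower, or 2 lower under normexp correction. Of all tested probes 55.9% were lower. The 30 tested probes described as immunoglobulin, a group chosen the same way, had a median of 0.0045 with 14 lower.

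Interferon and antigen presentation genes had a wide gap between the pooled value and those of the ages it was made from. Interferons induce antiviral genes and raise the major histocompatibility complex (MHC), which displays peptides to T cells. Over both ages the 14 interferon response genes had a median of -0.08 with 10 lower, which was -0.67 with 12 lower at 130 d and 0.29 with 2 lower at 140 d. It was 0.04 with 9 higher without the control array labelled replicate 3 at 130 d, and -0.19 with 12 lower without the cortisol array labelled replicate 4 at 140 d. MX2, an antiviral GTPase, differed by -0.35 ± 0.28, and by -0.11 without the control array labelled replicate 3 at 130 d. That array held 2.71 for MX2, against at most 0.18 on the other 5. TLR7 differed by -0.39 ± 0.14 and IFNAR1, an interferon receptor chain, by 0.09 ± 0.08. Under normexp correction TLR7 was 0.10 and IFNAR1 -0.09, and IFNAR1 was 0.04 without the control array labelled replicate 2 at 130 d.

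The 27 tested probes that the array describes as MHC or histocompatibility genes, also a group chosen after values were seen, showed such a gap too. Their pooled median was 0.03, with 16 higher and 11 lower, while 27 of 27 were lower at 130 d (median -0.80) and 25 of 27 higher at 140 d (median 0.80). Of all tested probes 46.7% were lower at 130 d and 58.7% at 140 d. The probes overlap in sequence and gene and are not 27 independent measurements. On the 130 d arrays their mean signal was 1.56 ± 0.82 in 6 controls against 0.76 ± 0.25 in 6 cortisol fetuses (SD over arrays). On the 140 d arrays it was 0.34 ± 0.53 in 8 controls against 1.06 ± 0.62 in 7 cortisol fetuses. The control array labelled replicate 3 at 130 d, at 3.00, and the cortisol array labelled replicate 4 at 140 d, at 2.10, were the highest of their groups. Without the first the pooled median was 0.22 with 21 higher, and without the second -0.09 with 5 higher. The lowest median with any array left out, also -0.09, came without the cortisol array labelled replicate 3 at 140 d. That array was the next highest of its group, at 1.70.

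**Figure D4:**
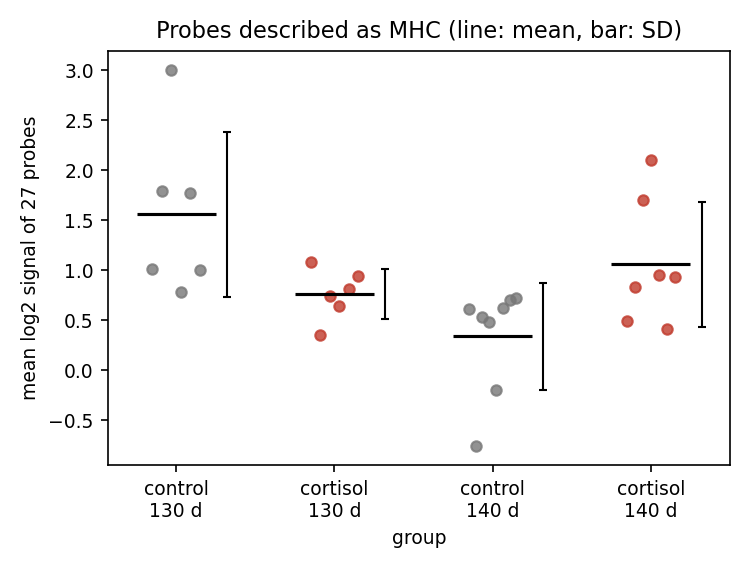
Mean signal of 27 probes described as MHC genes (vertical axis, log2 relative to the array's 75th percentile) on each array of the 4 groups; lines are group means and bars are 1 SD. The order of control and cortisol means turns between the ages, from 1.56 and 0.76 at 130 d to 0.34 and 1.06 at 140 d, with overlapping arrays at both.

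Inflammation and myeloid genes also divided by age. The 24 inflammation and adhesion genes had a pooled median of 0.03 with 16 higher, made of -0.19 at 130 d and 0.28 at 140 d, and of -0.12 with 8 higher without the cortisol array labelled replicate 4. IL18, an inflammatory cytokine, differed by 0.28 ± 0.27, and by 0.11 without that array. Of 5 myeloid markers 4 were lower over both ages (median -0.08), 5 lower at 130 d and 5 higher at 140 d, with LYZ, the enzyme lysozyme, at -0.27 ± 0.30. LYZ was -0.13 without the control array labelled replicate 3 at 130 d and -0.42 without the cortisol array labelled replicate 4. The 3 neutrophil granule genes had a median of 0.33, made of -0.67 with all 3 lower at 130 d and 1.31 with all 3 higher at 140 d. It was 0.04 without that cortisol array, and the mean level of the 3 genes had a group SD of up to 1.84. The part of blood cells in these values was not tested.

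A test of whether the cortisol difference itself changed between the ages gave 0 of 12778 probes past the threshold (percent called 0.00), with a smallest adjusted p of 0.203 and 743 probes (5.81%) at an unadjusted p under 0.05. Taken alone, neither age had a call. At 130 d there were 455 probes (3.56%) and at 140 d 727 probes (5.69%) under an unadjusted p of 0.05, each with 0 past the adjusted threshold. Among the genes named here the smallest adjusted p of the age difference was 0.333, for PRP2, with 0.465 for CLCN2. PRP2 had no array well above background at 140 d, so an age difference cannot be read from it. The interval of the age difference lay within 2-fold for 78.0% of probes, against 96.8% for the pooled difference. By design the age difference has the larger SE (median 0.22 against 0.11), so it was less well bounded.

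**Figure D5:**
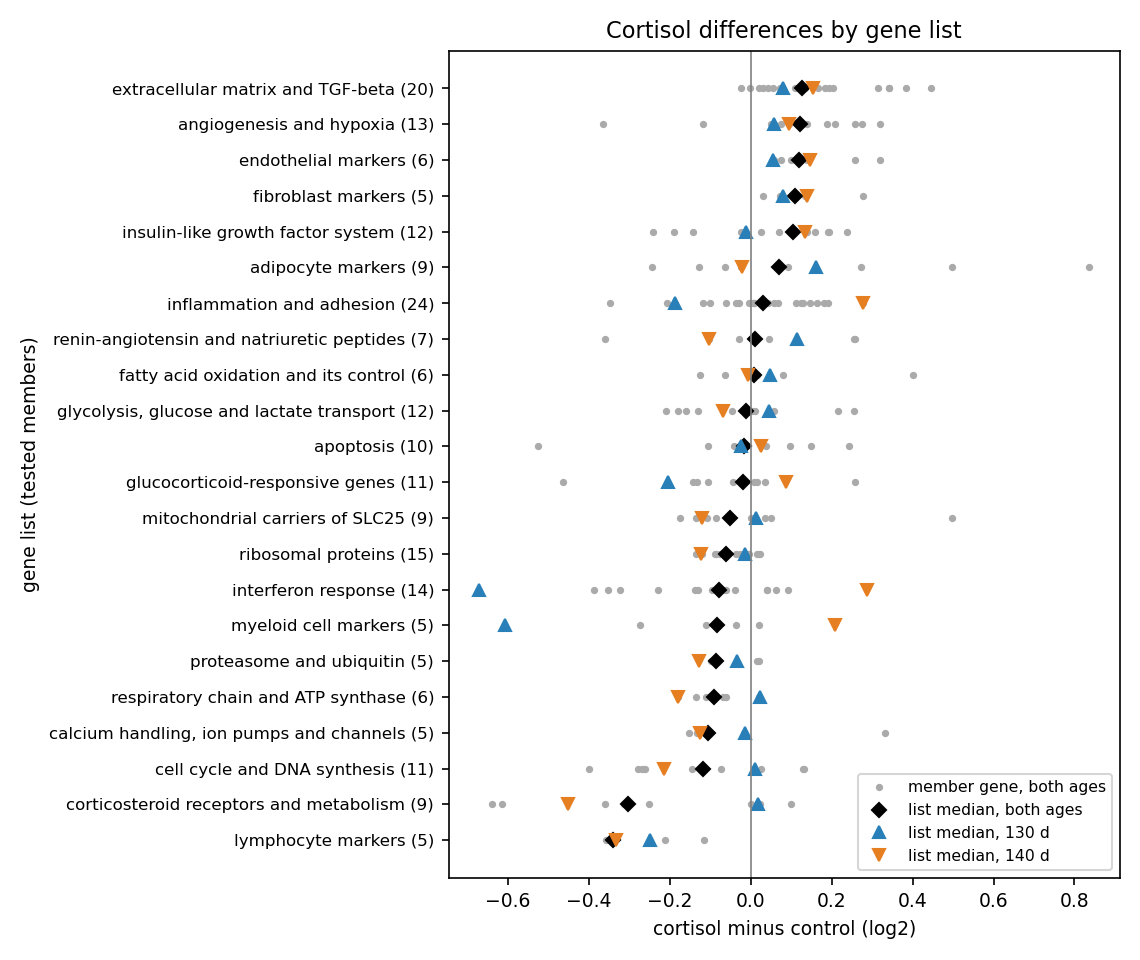
Cortisol minus control (horizontal axis, log2) for the 22 gene lists with at least 5 tested members (number tested in brackets): grey dots are genes over both ages, diamonds the list median over both ages, blue and orange triangles the medians at 130 d and 140 d. The interferon and myeloid triangles stand on opposite sides of 0, and the lymphocyte triangles are both below it.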

How the data were processed

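RNA from 27 fetal septa was read on 1-colour Agilent arrays. The scanner files hold spot intensity, background-subtracted and detrended by the authors' scanner software but not scaled between arrays, per the file headers. The submitters' processing notes name Agilent Feature Extraction, version 10.1.1.1. The table the authors deposited holds log2 values and served as an alternative. What its per-array constant was computed from is not stated.

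Here log2 intensity was scaled to each array's 75th percentile, outlier spots were dropped and repeat spots averaged. A minimum of 6 arrays well above background kept 12778 probes, which were fitted with limma 3.58.1 in R 4.3.3 (gestation plus arm, 2-sided, Benjamini-Hochberg threshold 0.05). A 4-group fit gave the values at each age and their difference. Symbols came from the files and RefSeq names and covered 1225 probes (9.59%) for 796 genes. The probe with the highest mean stood for its gene. The fit was tested on simulated data.

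Genes named are, per direction, the 10 with the smallest p, since none passed, up to 3 members of each list (3 for the corticosteroid, glucocorticoid-responsive, matrix, lymphocyte and interferon lists, 1 for the others, numbers set after values were seen), 8 genes of glucocorticoid action where tested, and 2 unnamed probes. Members and lists were chosen with earlier results of these data known. The result for 1 gene the rule takes is not reported here. Alternatives were other background corrections, scalings, filters and blocks, single ages and slides, and each array left out.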

Additional observations from a re-analysis of the deposited data

Results flagged for a closer look

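Among the 52 genes and probes named, 208 sets of 6 to 8 arrays were examined for an array far from the others of its group, and 25 values stood apart by Dixon's test, which chance does in about 1 of 20 groups (5%). Most came from few arrays. The cortisol array labelled replicate 4 at 140 d stood apart for RCAN1 (3.66), CCR10 (-2.91), ATP5MC1 (7.57) and SLC25A11 (-0.80). The control array labelled replicate 1 at 140 d did so for TRAF3 (-6.03), TSPO (2.30), PLIN1 (-0.48), TIMP1 (1.46) and MMP2 (-3.01). The control array labelled replicate 2 at 130 d did so for POMC (2.45), PFKL (-1.57), IFNAR1 (1.15) and VIM (6.50). At 140 d the control array labelled replicate 3 stood apart for NPPC (-4.42) and HSD11B2 (-0.12), replicate 4 for SCNN1A (-6.41) and replicate 2 for A_70_P066456 (-6.33), and the cortisol array labelled replicate 5 for A_70_P066456 (-6.95). At 130 d the control arrays labelled replicates 1 and 3 stood apart for A_70_P045761 (-6.83) and MX2 (2.71). Cortisol arrays at 130 d stood apart for PRP2 (-6.69, replicate 1), SLC2A8 (-3.68, replicate 2), A_70_P045761 (-7.40, replicate 2), EDN1 (-1.73, replicate 3) and SCNN1A (-7.42, replicate 6). All values are log2 signals relative to the array's 75th percentile.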

How the results depend on the processing

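The count of probes past the threshold was 0 in every alternative run, and the smallest adjusted p was lowest, at 0.136, with the 130 d arrays alone. Unadjusted counts ran from 198 within slide 3 to 770 within slide 5, which held 3 control arrays and 1 cortisol array, taken to vary like the controls. Of 2304 values recomputed for named genes and probes, 2217 kept their sign and 87, for 38 results, changed it, and none passed the threshold (adjusted p 0.339 to 1.00). Most of the 2304 came from leaving out 1 array in turn, which can hardly turn a sign, so the total does not measure stability. Of the 87 changes 17, for 2 results, came that way. Normexp correction gave 16, and slides 2, 3, 4 and 5 taken alone gave 6, 12, 5 and 14. With normexp correction, relative to its shift of 0.12, values were RCAN1 -0.0057, PGF 0.039, SLC25A38 0.031, HOXC6 0.082, F11R 0.16, TLR7 0.10, ACR 0.10, CRHR1 0.15, SCNN1A 0.12, IGFBP6 -0.0013, IFNAR1 -0.089, CD3D 0.043, NR3C1 0.10, PER1 0.18, A_70_P045761 0.055 and A_70_P066456 0.11. At 130 d alone they were BGLAP -0.098, TRAF3 -0.0018, TXNIP -0.18, MMP2 -0.054, IL18 -0.11 and NR3C1 0.11, and at 140 d alone PRP2 -0.18 (not well above background), CRHR1 0.0012, MX2 0.12, LYZ 0.087 and PER1 0.088. Within slide 2 (8 arrays) they were FTO -0.0048, IGFBP6 -0.040, PFKL -0.029, EDN1 -0.25, LYZ 0.062 and HSD11B1 -0.33. Within slide 3 they were ABCB1 -0.48, TRAF3 -0.16, PGF 0.085, PLIN1 0.080, ACR 0.12, CRHR1 0.060, SCNN1A 0.038, RPS20 0.0060, UBB 0.0054, IL18 -0.19, NR3C1 0.064 and PER1 0.31. Within slide 4 they were BGLAP -0.14, POMC 0.013, MMP2 -0.14, MX2 0.12 and LYZ 0.56. Within slide 5 they were CLCN2 -0.038, TRAF3 -0.18, RCAN1 -0.14, CCR10 -0.048, ACR 0.093, IGFBP6 -0.28, PPARA 0.091, PFKL -0.14, TIMP1 -0.16, MX2 0.19, IL18 -0.14, EDN1 -0.26, NR3C1 0.22 and HSD11B2 0.50. The mean of both CCR10 probes was -0.0050. NR3C1, below 0.01 in size, was 0.0084 with slide as a fixed block, 0.0039 as a random block, 0.0098 with 4 group means and 0.0028 in the authors' deposited table. With arrays left out in turn NR3C1 ran from -0.046 to 0.061 and PER1 from -0.11 to 0.022. The causes were not tested.

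Whether replicate numbers of the labels pair the arms could not be settled. At 130 d same-numbered arrays of both arms sat on the same slide, so number and slide cannot be told apart there. Deviations from group means correlated at a mean of 0.07 for arrays of different groups on the same slide. On different slides this mean was -0.02. Correlations of same-numbered deviations were -0.04 to 0.25 at 130 d and -0.09 to 0.36 at 140 d, and 2 of 6 and 3 of 7 arrays correlated best with their own number. With the replicate block 0 probes passed (417 unadjusted), and NR3C1 was 0.012.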
